A study of Mus musculus with 4 samples.

Results

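Chemokines are small secreted or membrane-held proteins that direct the movement of leukocytes, and their receptors are mostly G protein-coupled receptors of the surface of the cells that move. The atypical receptors (Ackr) bind chemokines without that signalling and take them up, which shapes gradients in tissue. In the heart the family is known above all for the recruitment of monocytes and neutrophils after injury and for the exit of leukocytes through lymphatic vessels. The members described here are all genes whose symbol starts with Ccl, Cxcl, Xcl, Cx3cl, Ccr, Cxcr, Xcr, Cx3cr or Ackr followed by a digit, with Ccr2 left out. They were chosen by a rule on names, with earlier results of these data known. They are 66 of 32286 features, or 60 symbols, with 38 ligands and 22 receptors.

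The cells are interstitial cells of mouse hearts, taken 1 month after stroke (2 samples) or from controls (2 samples), all of the strain Ccr2creERT2-Ai14. In that strain the Ccr2 gene drives an inducible Cre, which turns on a fluorescent reporter, in both groups alike. The labels give neither age, sex nor any pooling of animals. Hearts were digested with enzymes, strained to remove cardiomyocytes, depleted of red and dead cells, and sorted for live nucleated cells. RNA was measured with droplet single-cell sequencing as unique molecular identifiers (UMIs, each standing for 1 captured RNA molecule). All cells were deposited in 1 joined table whose barcodes end in 1 to 4, and nothing ties these 4 libraries to stroke or control, so stroke and control were not compared and the libraries are called by number.

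The libraries held 31955157 to 45834980 UMIs in 9168 to 10473 barcodes each. Of 39731 barcodes, 37594 were analysed, with medians of 2583 to 3487 UMIs per cell by library. Clustering without the members gave 21 classes of at least 50 cells, 9 of them immune, named "-like" from marker genes only. The 1335 cells (3.55%) in no such class are left out of every level by class. Libraries differed in makeup: library 3 held 561 of 1076 macrophage-like cells and 618 of 7872 fibroblast-like cells, and library 2 held 909 B-cell-like cells, against 98 to 254 in each of the others. Among the analysed cells, 138 barcode sequences occurred in more than 1 library.

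A level is the class's UMIs of a gene per 1000000 UMIs of that class (CPM). Intervals are exact Poisson 95% intervals for a CPM and Clopper-Pearson 95% intervals for a share of cells. They cover counting error only. The joined table counts as 1 sample, so no test between classes was run and no p-value is given. Where counts are 0, up to 3 UMIs are allowed for. The annotated spans of Ackr4, Ccl2, Ccl6, Ccl19, Ccl21a, Ccl25, Cxcl10, Cxcl16, Cxcr5, Cxcr6, Xcl1 and Cx3cr1 overlap genes on the other strand in the GENCODE annotation, and that of Cx3cr1 also genes on its own strand, so their counts are less certain. In RefSeq the spans of Ccl3 and Ccl4, on opposite strands, overlap as well.

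Of the 60 symbols, 41 reached 20 CPM from at least 10 UMIs in some class, 25 ligands and 16 receptors. Immune classes were highest for 18 of the 25 ligands and for 13 of the 16 receptors. Of all 11799 features at that level in some class, 41.6% were highest in an immune class. Stromal or vascular classes led for the other 7 ligands and 3 receptors. The members together made up 0.169% of the UMIs of the named classes. For 31 of the 41 the highest class exceeded the next by more than counting error. Counting error takes no account of single cells: the 31 include Ccl1, where 1 T-cell-like cell held 90.4% of the class's UMIs. For 24 of the 41 the highest class was above the next, by value, in each of the 4 libraries. Not all of these are among the 31: Ccl19 is not.

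**Figure D1:**
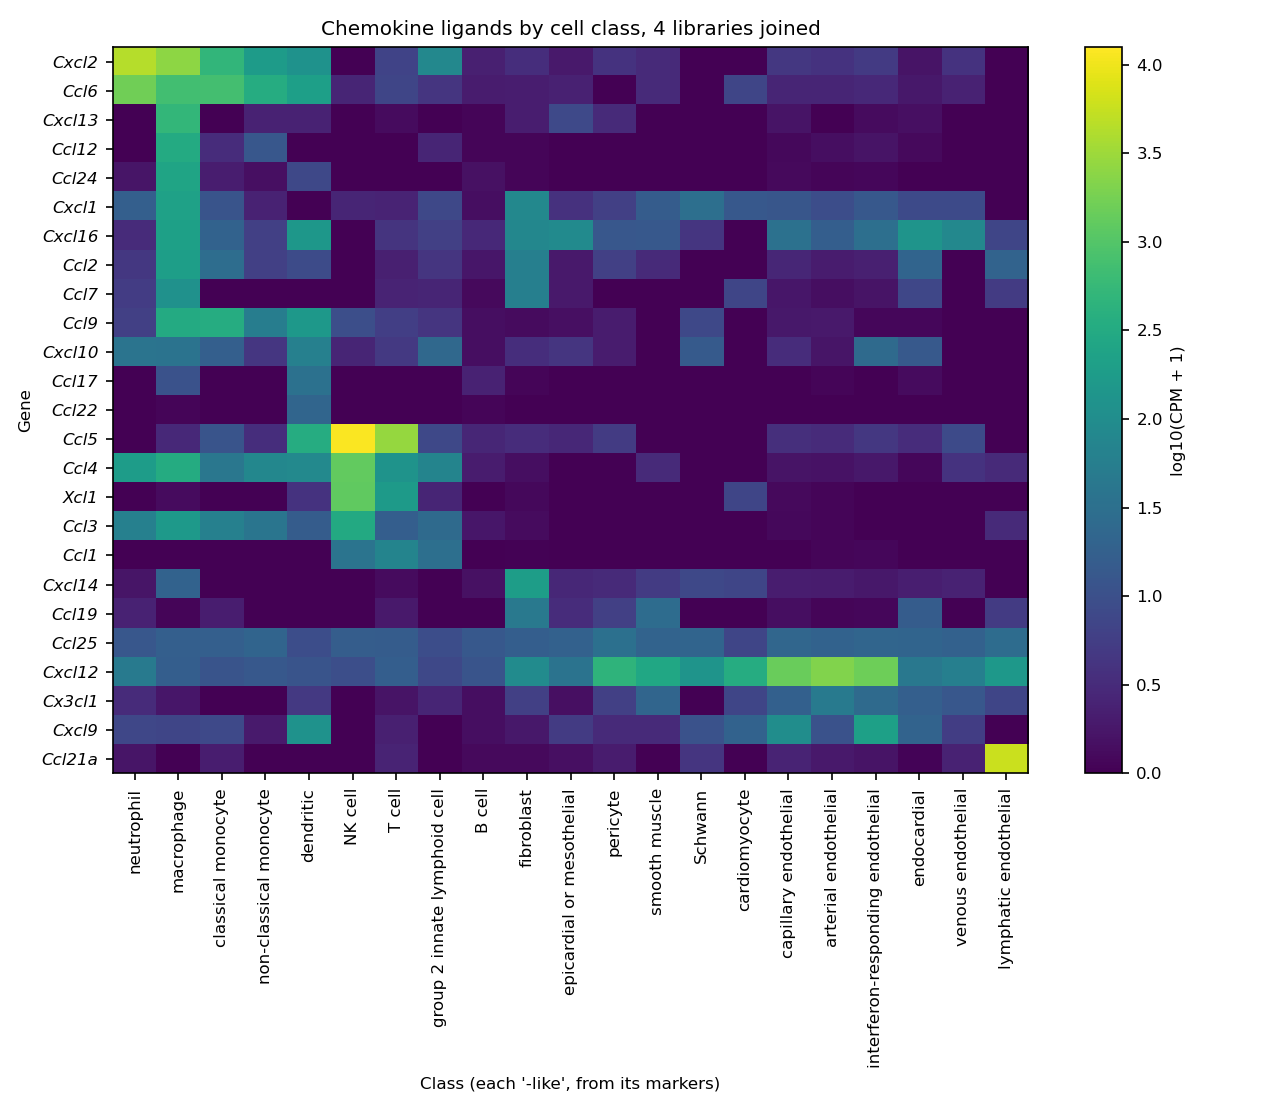
Level of the 25 ligands (rows) in 21 classes (columns) as log10(CPM + 1), colour scale from 0 to 4.1, all libraries joined. Cxcl12 fills the capillary, arterial and interferon-responding endothelial-like columns, Ccl21a is high in the lymphatic column (5848 CPM), and Ccl5 is brightest in NK-cell-like cells (11712 CPM).

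Counted by broad class, 54 member features had at least 10 UMIs over all analysed cells and could be called at 2-fold over all other cells, with 20 CPM added on both sides. Macrophage-like cells held 16 of them (29.6%), against 3.57% of all 20521 features tested in that contrast. Neutrophil-like cells held 10 (18.5%, all features 4.82%), dendritic-like cells 10 (18.5%, all features 3.43%) and NK-cell-like cells 9 (16.7%, all features 3.7%). T-cell-like cells held 7 of the 54 (all features 3.32%) and fibroblast-like cells 5 (9.26%, all features 3.14%). B-cell-like cells held 4 (7.41%, all features 3.31%), as did the monocyte-like classes together (7.41%, all features 4.54%). Endothelial-like cells held 3 (5.56%, all features 3.82%), as did cells resembling group 2 innate lymphoid cells (5.56%, all features 3.31%). Pericyte- and smooth-muscle-like cells together (all features 2.69%) and epicardial- or mesothelial-like cells (all features 3.19%) held none. The 16 in macrophage-like cells were mostly ligands (13), whereas the 4 in B-cell-like cells were all receptors (Ccr6, Ccr7, Cxcr4 and Cxcr5). The shares in endothelial-like, monocyte-like and group 2 innate lymphoid-like cells lay closest to their backgrounds, apart from the classes with none. Some of these calls lean on 1 cell. In T-cell-like cells 1 cell held 90.4% of the Ccl1 UMIs. In dendritic-like cells 1 cell held 40.9% of the Ccl17 UMIs and 1 cell 37.2% of the Cxcl10 UMIs. Cxcl9 there also leaned on 1 cell, as given below. Dendritic-like Ccl5 was 851 CPM in library 3, against 52.4 to 216 CPM in the other libraries. Ccl22 in dendritic-like cells was only just called, at 2.02-fold.

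The neutrophil-attracting ligands Cxcl1 and Cxcl2 lie close together on chromosome 5 (Cxcl1 at 90891245 to 90893121 and Cxcl2 at 90903899 to 90905938 of GRCm38.p6, which is mm10) and both are known targets of NF-kappaB. Their upstream sequences are shown because both are high in the serous-cavity-like macrophages below, and that of Cxcl10, a classical interferon target, because it is set beside Cxcl9. Each line gives 100 bases from RefSeq's promoter table (GRCm38.p6) in the gene's own direction. The first pair ends 41 bases before the start and Cxcl10 ends 151 bases before it. The capitals mark matches to a kappaB-type motif (GGG, any 2 bases, then TTTCC) in Cxcl1 and Cxcl2 and to an interferon response-type motif (GAAA, any 2 bases, then GAAA) in Cxcl10, each searched on both strands.
Cxcl1, chr5:90891105-90891204, plus strand: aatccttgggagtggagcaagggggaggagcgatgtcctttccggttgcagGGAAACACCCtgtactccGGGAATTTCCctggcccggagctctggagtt
Cxcl2, chr5:90903759-90903858, plus strand: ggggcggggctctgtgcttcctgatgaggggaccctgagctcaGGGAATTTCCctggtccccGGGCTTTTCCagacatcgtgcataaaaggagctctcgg
Cxcl10, chr5:92349040-92349139, minus strand: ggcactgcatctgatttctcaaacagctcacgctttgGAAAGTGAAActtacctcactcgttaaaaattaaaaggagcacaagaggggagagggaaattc
Both Cxcl1 and Cxcl2 carried 2 matches to the kappaB-type motif within 100 bases of the start, 1 of those in Cxcl1 on the other strand. The motif stood in the 250 bases before the start of 3 of the 32 named members found in the promoter table (Ccl9, Cxcl1 and Cxcl2), and in 1.41% of all 32851 promoters. The interferon response-type motif stood in 3 of the 32 (Ccl19, Cxcl10 and Cxcl14) and in 2.98% of all promoters. These matches describe the letters and say nothing of binding.

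Cxcl2 was highest in neutrophil-like cells, at 2361, 4364, 4521 and 5249 CPM in libraries 1 to 4. Macrophage-like cells followed, at 1123, 4682, 1217 and 3451 CPM. Neutrophil-like cells were above macrophage-like cells in libraries 1, 3 and 4, and below them in library 2. After thinning each cell to 1000 UMIs, 63.1% of neutrophil-like cells (72.2% unthinned) and 31.9% of macrophage-like cells (38.5% unthinned) had a Cxcl2 UMI, against 0.263% of capillary endothelial-like cells (0.712% unthinned), taken as background. Median depths were 3031, 5560 and 2067 UMIs. Here and below, thinned shares leave out cells with fewer than 1000 UMIs, and unthinned shares are of all cells of the class. Macrophage-like cells were more numerous (1076 against 410) and had more UMIs per cell. They held 69.6% of the Cxcl2 UMIs of all classes and neutrophil-like cells 25.0%. Of the macrophage-like cells, 119 were the serous-cavity-like cells described below, which lay mostly in libraries 2 and 4. Their Cxcl2 level was well above the 2504 CPM of the class, and their part of its UMIs is not given here.

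The macrophage-like cells that resemble those of serous cavities stood apart. These 119 cells had 7459 CPM of Cxcl2, 2333 CPM of Cxcl13, the ligand that draws B cells, and 857 CPM of Cxcl1. Their Cxcl13 came to 3268 of the 3539 UMIs of the whole macrophage-like class. They were unevenly recovered, with 0, 82, 3 and 34 cells in libraries 1 to 4, and the class values follow this. Cxcl13 in macrophage-like cells was 64.8, 1348, 39.4 and 818 CPM in libraries 1 to 4, and Cxcl1 was 53.7, 483, 63.2 and 359 CPM. Libraries 2 and 4 are high for both genes and libraries 1 and 3 are low. The macrophage-like level of Cxcl2 given above was likewise highest in libraries 2 and 4. Without the serous-cavity-like cells Cxcl13 fell to 50.6 CPM in the class, against 524 CPM with them, and Cxcl1 to 56.6 CPM, against 222 CPM with them, below its fibroblast-like level of 80.3 CPM. The fluid around the heart is a known home of such macrophages, and how far its cells entered each suspension was not measured.

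The remaining macrophage-like subtypes differed in what they carried. The MHC-II-high cells (444) had the most Ccl3 (364 CPM) and Ccl4 (768 CPM) among macrophage-like subtypes, both inflammatory attractants of leukocytes, and the most Ccl2 (307 CPM). They also had 561 CPM of Ccl12, a monocyte attractant, against 281 CPM in resident Lyve1 Timd4 Folr2 cells (303) and 1.43 CPM in serous-cavity-like cells. The resident cells had 68.3 CPM each of Ccl3 and Ccl4. Ccl24, an eotaxin, was 437 CPM in serous-cavity-like cells, 343 CPM in resident cells and 193 CPM in MHC-II-high cells. Lipid-associated cells (59) had 1674 CPM of Ccl6 and 672 CPM of Ccl9, ligands of Ccr1. Their 99.6 CPM of Ccl17, a ligand of Ccr4, came from 62 UMIs in 2 libraries, 42 of them in library 4, and was 38.1 CPM without that library.

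**Figure D2:**
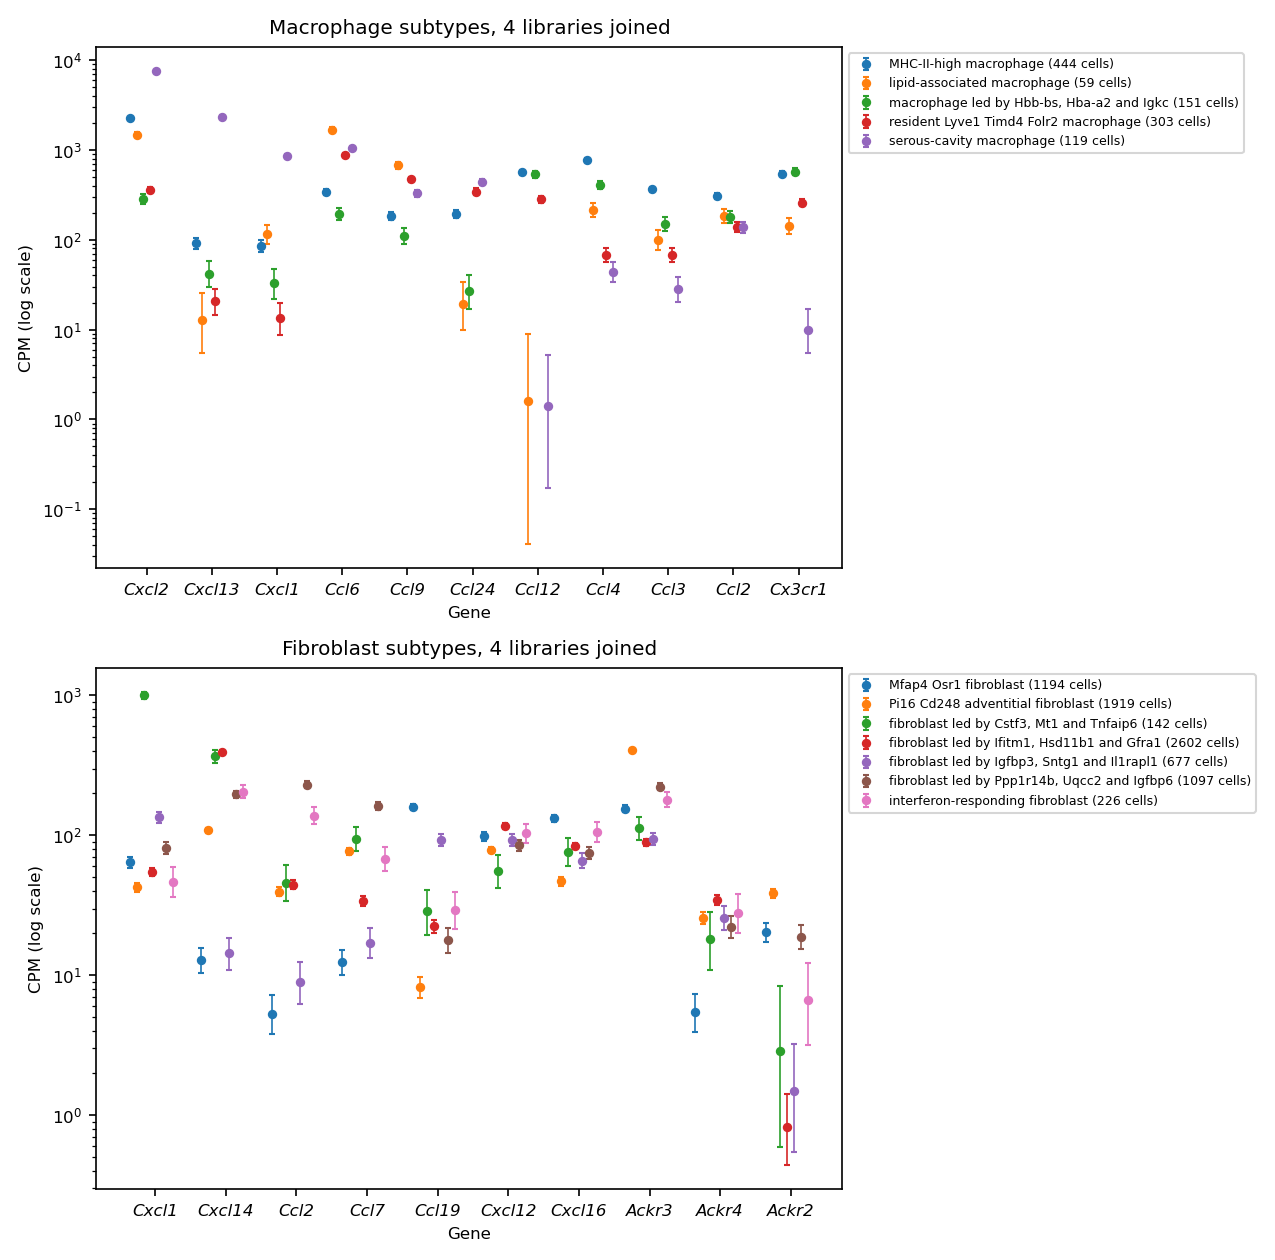
CPM (log axis) of members in 5 macrophage-like subtypes (upper panel) and 7 fibroblast-like subtypes (lower panel), all libraries joined, with exact Poisson 95% intervals. A gene with no UMI in a subtype has no point. Serous-cavity-like macrophages are far above the rest for Cxcl13 (2333 CPM) and among the lowest for Ccl12, and the 142 fibroblast-like cells led by Cstf3 are far above the rest for Cxcl1.

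The monocyte-attracting ligands Ccl2, Ccl7 and Ccl12, which act on Ccr2, lie close together on chromosome 11, with Ccl11 between Ccl7 and Ccl12 (82035577 to 82103399 from the first base of Ccl2 to the last of Ccl12, GRCm38.p6). Ccl2 in macrophage-like cells was 225, 191, 227 and 99.8 CPM in libraries 1 to 4, against 67.9, 47.8, 81.8 and 38.8 CPM in fibroblast-like cells. Ccl7 in macrophage-like cells was 156, 110.1, 125 and 85.7 CPM, against 54.0, 55.7, 99.7 and 54.6 CPM in fibroblast-like cells. The macrophage-like level was the higher in every library for both genes. By total, the order turned: fibroblast-like cells held 62.9% of the Ccl2 UMIs and 76.4% of the Ccl7 UMIs, and macrophage-like cells 28.7% and 20.3%. Ccl12 was 331, 232, 396 and 198 CPM in macrophage-like cells and 11.9 CPM in the next class, non-classical monocyte-like cells. Ccr2 itself, outside the members, was highest in classical monocyte-like cells (644 CPM). Ccl2 and Ccl7 were found in the same cells more often than in the class at large: 72.1% of Ccl7-positive macrophage-like cells had a Ccl2 UMI, against 32.7% of all macrophage-like cells, and 25.6% of Ccl7-positive fibroblast-like cells had one, against 4.88% of all. Cells with more UMIs are more often positive for any gene, which adds to such overlaps.

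Among the other myeloid ligands, Ccl6 in neutrophil-like cells was 679, 1468, 1985 and 1865 CPM in libraries 1 to 4, and 674, 593, 969 and 568 CPM in classical monocyte-like cells. In library 1, with 41 neutrophil-like cells, both classes were level and macrophage-like cells were higher, at 805 CPM. Ccl9 was 376, 289, 388 and 219 CPM in classical monocyte-like cells and 377, 383, 281 and 309 CPM in macrophage-like cells. The pooled levels of 344 and 325 CPM do not differ beyond counting error. Ccl24 in macrophage-like cells was 169, 301, 242 and 199.6 CPM, and 1 cell held 16.1% of its UMIs.

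The early response genes (Fos, Jun, Egr1 and others, 13 in all), which enzymatic digestion is known to switch on, were high in some of the groups with the most of these inducible ligands and low in others. Their summed level was 13174 CPM in neutrophil-like cells and 10309 CPM in macrophage-like cells, against 1114 CPM in capillary endothelial-like cells and 2804 CPM in fibroblast-like cells. Within macrophage-like cells it was 15646 CPM in the serous-cavity-like and 15053 CPM in the MHC-II-high subtype, against 4637 CPM in the resident subtype. Within fibroblast-like cells it was 13371 CPM in the cells led by Cstf3, Mt1 and Tnfaip6, which had the most Cxcl1, but 2173 CPM in those led by Ppp1r14b, which had the most Ccl2 and Ccl7. It was 2272 CPM in NK-cell-like cells, the highest class for Ccl3 and Ccl4, and 9355 CPM in group 2 innate lymphoid-like cells, where each of these lay in 1 cell. Its part in the levels of Cxcl1, Cxcl2, Ccl2, Ccl3 and Ccl4 was not tested.

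Fibroblast-like subtypes divided the family's ligands among them. The 142 cells led by Cstf3, Mt1 and Tnfaip6 had 963, 964, 1071 and 1199 CPM of Cxcl1 in libraries 1 to 4 (102, 10, 11 and 19 cells). The other fibroblast-like subtypes had 42.7 to 134 CPM. The 1097 cells led by Ppp1r14b, Uqcc2 and Igfbp6 had the most Ccl2, at 361, 94.2, 578 and 94.0 CPM, and the most Ccl7, at 145, 94.2, 496 and 134 CPM. Library 3 was the highest and library 4 or 2 the lowest for both. Cxcl14, a ligand of mucosal and stromal tissue with no agreed receptor, was 208, 124, 439 and 148 CPM in all fibroblast-like cells, which held 98.0% of its UMIs. Its highest subtypes were the 2602 cells led by Ifitm1, Hsd11b1 and Gfra1 (396 CPM) and the Cstf3-led cells (366 CPM), and it was 12.8 CPM in the Mfap4 Osr1 cells. Ccl19, a ligand of Ccr7 and so of lymphocytes and mature dendritic cells, ran the other way with 159 CPM in the Mfap4 Osr1 cells and 22.4 CPM in the Ifitm1-led cells. The symbol Ccl19 stands for 2 features that were summed, and copies that resemble each other can share reads. Fibroblast-like cells as a class had 43.8 CPM of Ccl19, from 2265 UMIs, and smooth-muscle-like cells 27.4 CPM from 13 UMIs.

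Among endothelial-like cells Cxcl12, the ligand of Cxcr4 that holds and attracts many leukocytes and progenitors, separated the vessel types. Arterial cells had 2258, 2388, 2287 and 1650.4 CPM in libraries 1 to 4, and capillary cells had 1802, 1212, 1427 and 1366 CPM. Arterial was the higher in every library. Interferon-responding cells lay between them at 1576 CPM. Lymphatic (153 CPM), venous (56.8 CPM) and endocardial cells (42.9 CPM) were far lower. Thinned to 1000 UMIs, 69.1% of arterial-like cells (79.5% unthinned) and 2.80% of endocardial-like cells (10.2% unthinned) had a UMI, against 1.51% of B-cell-like cells (5.02% unthinned), taken as background, at median depths of 2230, 3848.5 and 3972 UMIs. Pericyte-like cells had 470 CPM. Capillary endothelial-like cells, the largest class, held 60.6% of all Cxcl12 UMIs.

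Ccl21a, which guides Ccr7-bearing cells into lymphatic vessels, was 4164, 6561, 3595 and 8257 CPM in the 34, 27, 34 and 56 lymphatic endothelial-like cells of libraries 1 to 4. These 151 cells held 96.9% of its UMIs, and no other class passed 3.32 CPM. Ccl21a, Ccl21b and Ccl21c are near-identical copies of 2 features each, so reads may have been assigned to Ccl21a that belong to another copy. Ccl21b had 1 UMI and Ccl21c none in all barcodes.

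Cxcl9, an interferon-induced ligand of Cxcr3, was 311, 177, 160 and 284 CPM in interferon-responding endothelial-like cells and 93.7, 100.3, 104 and 106 CPM in capillary ones. Those cells were named from interferon genes that do not include Cxcl9, and they were the higher in every library. Dendritic-like cells had 124 CPM of Cxcl9, with 13.1 to 257 CPM over the libraries and 43.3% of the UMIs in 1 cell. Cxcl10 was 25.4 CPM in interferon-responding endothelial-like cells and 59.0 CPM in dendritic-like cells, where 1 of 12 positive cells held 37.2%. Without that cell the dendritic-like level was 37.3 CPM, beside 36.5 CPM in neutrophil-like and 35.8 CPM in macrophage-like cells. Cx3cl1, a membrane-held ligand for patrolling monocytes, was 48.7 CPM in arterial-like cells and 25.5 CPM in interferon-responding ones. Cxcl16 was spread more widely: 212 CPM in macrophage-like cells (149.5 to 256 CPM over the libraries), 146 CPM in dendritic-like cells, 133 CPM in endocardial-like cells and 77.8 CPM in fibroblast-like cells, which held 4027 of its UMIs, against 1433 in macrophage-like cells. Ccl25 was 6.17 to 31.5 CPM over the 21 classes, highest in pericyte-like cells (31 UMIs) but not beyond counting error above lymphatic endothelial-like cells (27.3 CPM).

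Lymphoid cells were led by NK-cell-like cells. Ccl5 was 10366, 14209, 11559 and 10211 CPM in them in libraries 1 to 4, against 5306, 1723, 3302 and 2959 CPM in T-cell-like cells. NK-cell-like cells were higher in every library. Thinned to 1000 UMIs, 97.0% of NK-cell-like (97.8% unthinned) and 31.8% of T-cell-like cells (34.9% unthinned) had a Ccl5 UMI, against 0.256% of capillary endothelial-like cells (0.574% unthinned), at median depths of 4145, 4324 and 2067 UMIs. Ccl4 was 1243, 1446, 1198 and 1322 CPM in NK-cell-like cells, the narrowest spread among the NK-led ligands. Ccl3 there was 187, 484, 320.4 and 193 CPM, and Xcl1, the ligand of Xcr1, 2177, 726, 1096 and 864 CPM. For Ccl3 the macrophage-like level of library 1 (231 CPM) was above the NK-like one. A T-cell-like group led by Fcer1g, Lyz2 and Klra5, 42 of whose 68 cells came from library 1, had 8929 CPM of Ccl5, 1060 CPM of Ccl4 and 1183 CPM of Xcl1. The NK-like levels, pooled, were 11712, 1300.2 and 1271 CPM. The group took no subtype name, and Klra5 among its leading genes belongs to a family known from NK cells.

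Ccl1, a ligand of Ccr8, shows how far 1 cell can set a class level. T-cell-like cells had 68.7 CPM from 219 UMIs in 5 cells, and 1 cell of library 3 held 198 of them (90.4%). Without it the level was 6.61 CPM, under the 37.5 CPM of NK-cell-like cells. The level by library was 39.3, 0.677, 303 and 0 CPM, where the 0 allows up to 3 UMIs. In the same way, all 42 Ccl4 UMIs and all 15 Ccl3 UMIs of group 2 innate lymphoid-like cells lay in 1 cell each. Ccl17 and Ccl22, the ligands of Ccr4, were highest in dendritic-like cells, at 33.3 CPM (44 UMIs) and 20.4 CPM (27 UMIs), and 1 cell held 40.9% of the Ccl17.

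**Figure D3:**
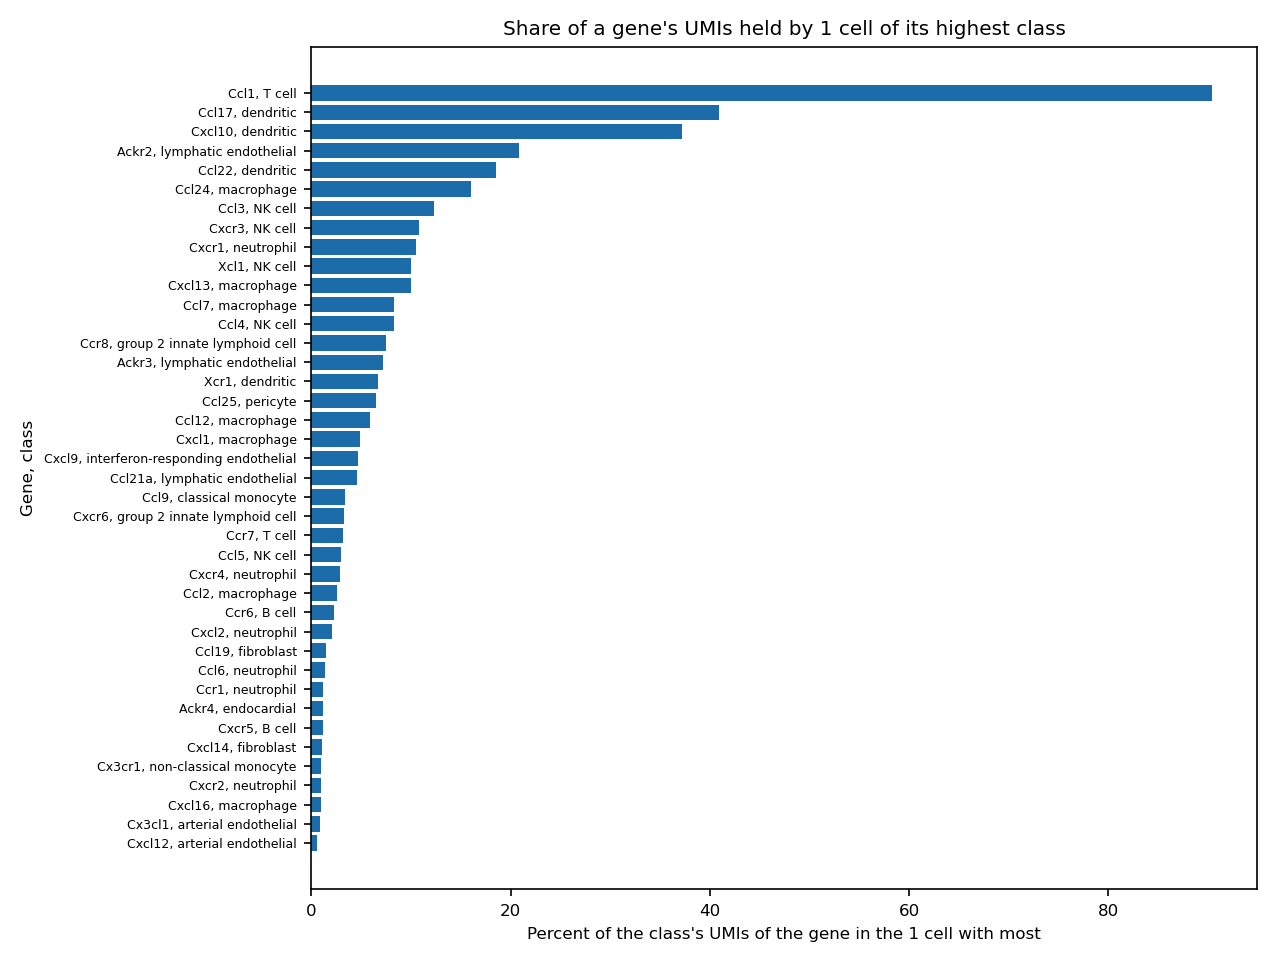
Percent of a gene's UMIs in its highest class that lay in the 1 cell with the most, for 40 of the 41 members that reached 20 CPM. Ccl1 (90.4%), Ccl17 (40.9%), Cxcl10 (37.2%) and Ackr2 (20.8%) are the 4 above 20%, and the other bars are shorter.

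Among receptors, neutrophil-like cells led for Cxcr2, Cxcr1, Ccr1 and Cxcr4. Cxcr2, the receptor of Cxcl1 and Cxcl2, was 485, 728, 868 and 923 CPM in neutrophil-like cells in libraries 1 to 4, and no other class had more than 0.471 CPM. After thinning, 56.1% of neutrophil-like cells (89.3% unthinned) had a Cxcr2 UMI, against 0.0232% of capillary endothelial-like cells (0.0276% unthinned). Cxcr1 followed at 27.2 CPM from 38 UMIs. Ccr1, a receptor of Ccl3, Ccl5, Ccl6 and Ccl9, was 273, 511, 579 and 427 CPM in neutrophil-like cells and 66.5 CPM in macrophage-like cells. Of the 410 neutrophil-like cells, 268 had both Cxcl2 and Cxcr2, and the share with Cxcr2 was 90.5% of Cxcl2-positive cells, against 89.3% of all.

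Cx3cr1, the receptor of Cx3cl1, was 586, 523, 526 and 576 CPM in non-classical monocyte-like cells, against 412, 180.4, 416 and 236 CPM in macrophage-like cells. The monocyte-like level hardly varied, and was the higher in every library. Among macrophage-like subtypes Cx3cr1 was 569 CPM in the cells led by Hbb-bs, Hba-a2 and Igkc (haemoglobin and immunoglobulin genes of red cells and plasma cells), 545 CPM in MHC-II-high cells, 258 CPM in resident cells, 143 CPM in lipid-associated cells and 9.99 CPM in serous-cavity-like cells. Cxcr4 was 89.6, 132, 215 and 131 CPM in neutrophil-like cells and 113, 100.4, 208 and 94.8 CPM in non-classical monocyte-like cells, which overlap and do not differ beyond counting error when pooled. It was 61.7 CPM in B-cell-like and 44.0 CPM in arterial endothelial-like cells.

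**Figure D4:**
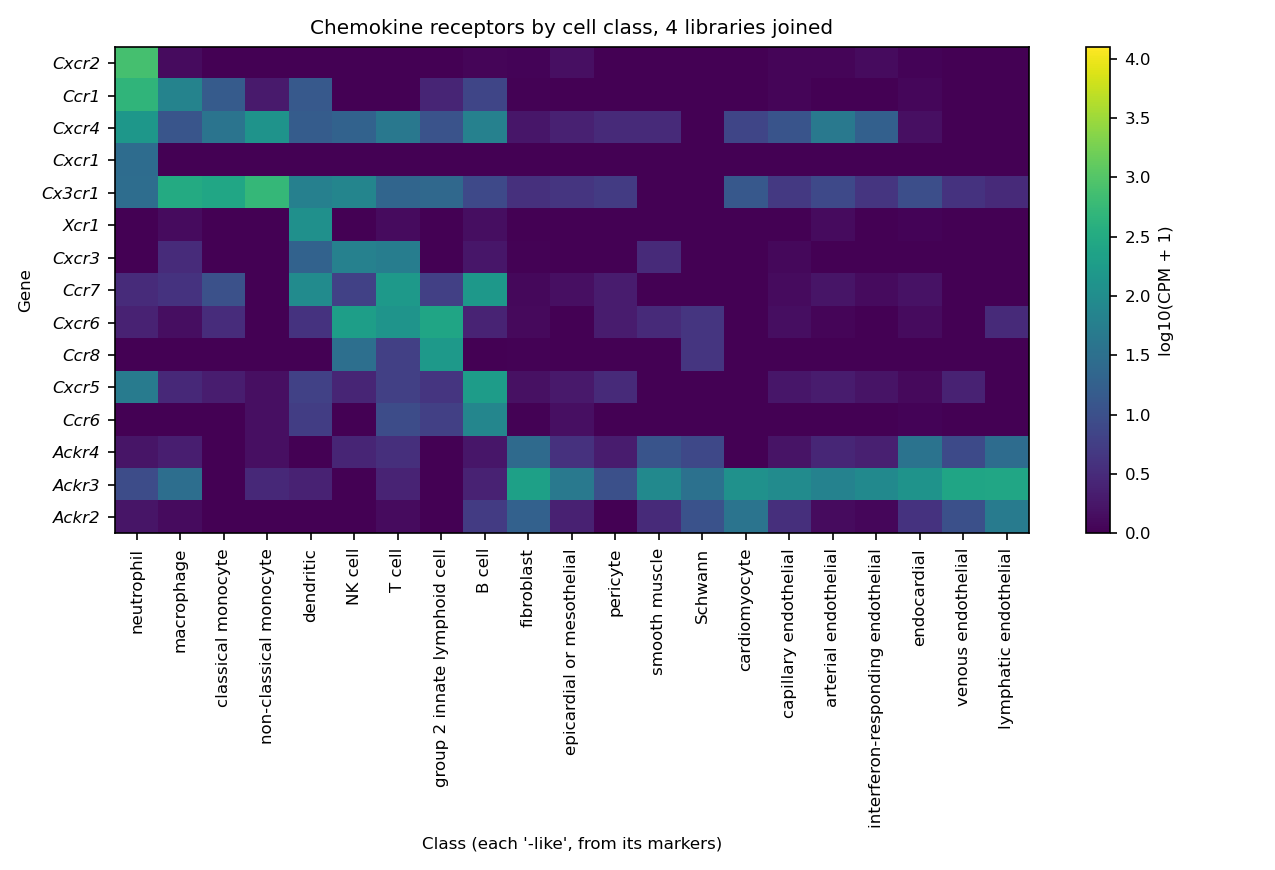
Level of 15 receptors (rows) in 21 classes (columns) as log10(CPM + 1), colour scale from 0 to 4.1, all libraries joined. Cxcr2 is bright in the neutrophil-like column (783 CPM) and at or near 0 in the others, while Ackr3 spreads over fibroblast-like and endothelial-like columns.

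Lymphoid receptors fell by cell type. Cxcr5, the receptor of Cxcl13 that leads B cells into follicles, was 235, 171, 185 and 223 CPM in B-cell-like cells. Ccr7 was 88.5, 187, 161 and 195 CPM in T-cell-like cells and 198, 119.5, 341 and 159 CPM in B-cell-like cells, with the order changing between libraries. In B-2-type cells it was 229.5 CPM, against 39.0 CPM in B-1-type cells. Ccr6 was 75.0 CPM in B-cell-like cells, with 105 CPM in the B-2-type and 47.1 CPM in the B-1-type, while its ligand Ccl20 had no UMI in any barcode. Cxcr6, the receptor of Cxcl16, was 264, 246, 285 and 219 CPM in group 2 innate lymphoid-like cells and 315, 99.3, 103 and 325 CPM in NK-cell-like cells. In gamma-delta T-cell-like cells it reached 713, 801, 502 and 621 CPM (12, 33, 17 and 16 cells), above every class. Ccr8 was 259, 38.2, 175 and 146 CPM in group 2 innate lymphoid-like cells, low in library 2, and Cxcr3 was 63.1 CPM in NK-cell-like and 54.0 CPM in T-cell-like cells. Xcr1, which marks cross-presenting dendritic cells, was 134, 144, 78.5 and 93.7 CPM in dendritic-like cells, and 148 of the 149 dendritic-like UMIs lay in the 52 type 1 cells.

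Cxcr5 was also seen in neutrophil-like cells, at 14.1, 53.6, 29.3 and 89.8 CPM in libraries 1 to 4 (70 UMIs in 50 cells). After thinning, 6.23% of neutrophil-like cells (12.2% unthinned) had a UMI, against 0.0697% of capillary endothelial-like cells (0.173% unthinned). The 6 B-cell markers summed to 110 CPM in neutrophil-like cells, against 8613 CPM in B-cell-like cells, and to 252 CPM in macrophage-like cells, and none of the 6 was at 0 in neutrophil-like cells. Cxcr5 in macrophage-like cells was 1.92 CPM. Whether B-cell RNA plays a part in the neutrophil-like level of Cxcr5 was not tested. The gene span of Bcl9l overlaps that of Cxcr5 on the other strand.

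The atypical receptors were stromal and endothelial. Ackr3, which takes up Cxcl12, was 256, 225, 127 and 379.7 CPM in lymphatic and 170.4, 346, 179.8 and 302 CPM in venous endothelial-like cells, with no fixed order between them. Fibroblast-like cells had 183, 258, 236 and 218 CPM and 63.8% of its UMIs, and the Pi16 Cd248 adventitial cells were the highest subtype at 383, 439.6, 459.8 and 396 CPM. Arterial endothelial-like cells, the highest in Cxcl12, had 64.0 CPM of Ackr3, the lowest of the endothelial-like classes. Ackr2, a scavenger of inflammatory Ccl ligands, was 50.4 CPM in lymphatic endothelial-like cells from 24 UMIs and 38.5 CPM in the Pi16 Cd248 cells from 612 UMIs. Ackr4, a scavenger of Ccl19 and Ccl21, was 35.9 CPM in endocardial-like, 27.3 CPM in lymphatic and 25.0 CPM in fibroblast-like cells. Ackr1 missed the minimum at 19.4 CPM in venous endothelial-like cells (13 UMIs), the cells it is known to mark.

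**Figure D5:**
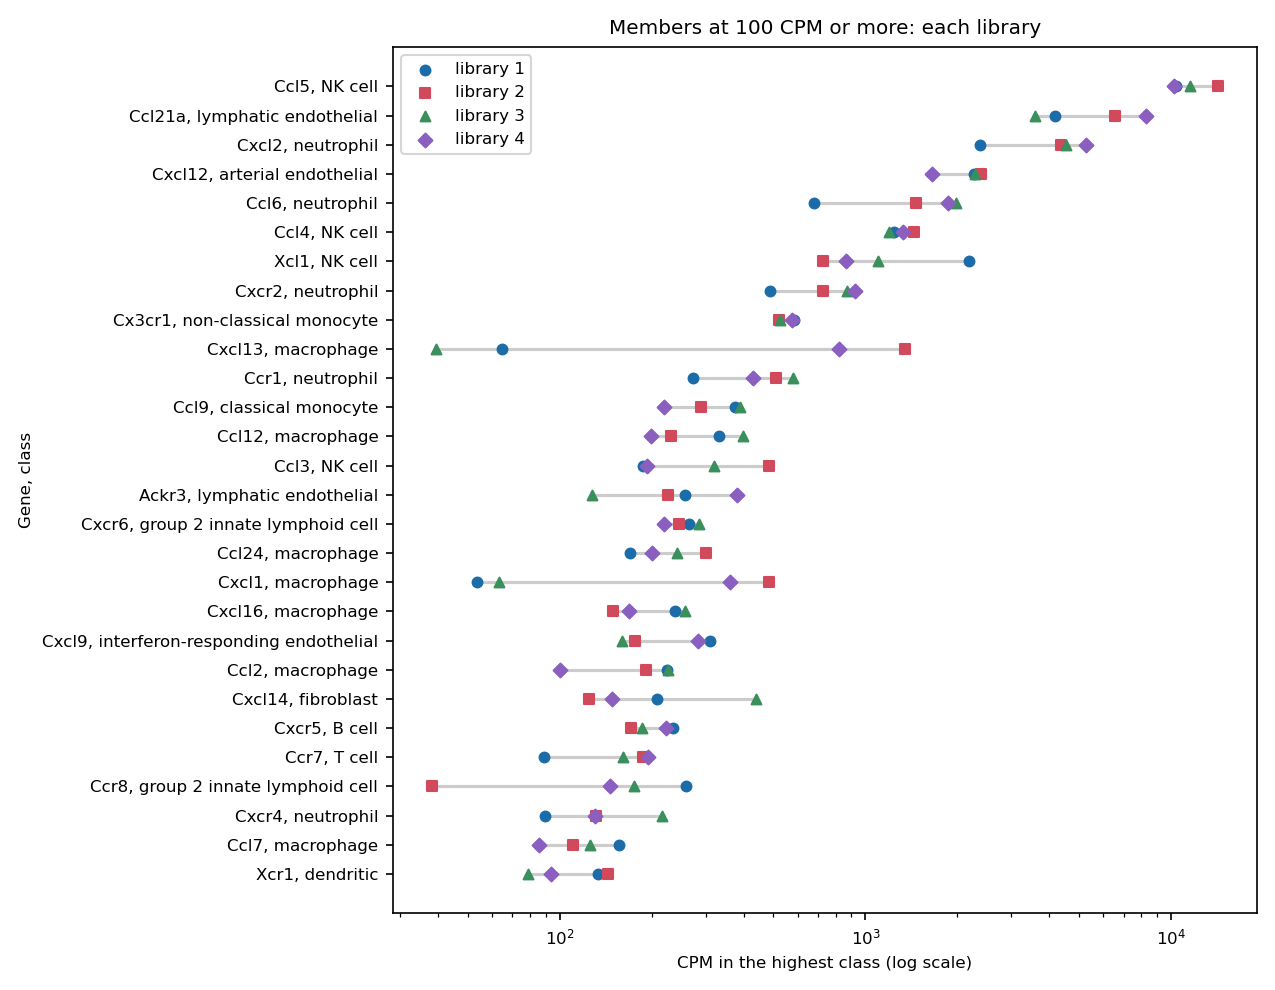
CPM (log axis) of 28 members at 100 CPM or more, in their highest class, with a marker for each of libraries 1 to 4 and a line from lowest to highest. Cx3cr1 in non-classical monocyte-like cells lies within 523 to 586 CPM, whereas Cxcl13 in macrophage-like cells spans 39.4 to 1348 CPM.

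Set against each other by established mouse pairs, 34 in all including those of Ccr2, both partners reached 20 CPM in 23. The highest class of the ligand and of the receptor differed in 18 of these and was the same in 5, among them Cxcl2 with Cxcr2 and Ccl6 with Ccr1, both in neutrophil-like cells. No such count was made for other pairs of genes, so the 18 of 23 cannot be set against a background. For Ackr3, Ccl9, Ccl19, Ccr7, Cxcr3, Cxcr4 and Cxcr6 the highest class was not above the next beyond counting error. Examples of split pairs were Xcl1 in NK-cell-like with Xcr1 in dendritic-like cells, Cxcl16 in macrophage-like with Cxcr6 in group 2 innate lymphoid-like cells, and Cx3cl1 in arterial endothelial-like with Cx3cr1 in non-classical monocyte-like cells. In 4 pairs the ligand reached the level without its receptor, among them Ccl24, whose receptor Ccr3, known from eosinophils, had 10 UMIs in all classes. These are levels of RNA and do not show that a signal passed.

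Of 24 other genes of the pathway, 23 reached the level, and 19 of these were highest in an immune class (82.6%, all features 41.6%). The list was picked by hand with earlier results of these data known, so this share describes the list and tests nothing. Pf4, a platelet-type chemokine outside the naming rule, was 2230 CPM in macrophage-like cells. Non-classical monocyte-like cells led for Dock2 and Elmo1 (1549 and 945 CPM), which turn receptor signals into movement, and neutrophil-like cells for Rac2 (730.5 CPM). Ccrl2, a non-signalling chemerin binder, was 234 CPM in neutrophil-like cells. The 4 led by other cells were Rarres2, the chemerin gene (4299 CPM), and Dpp4, a protease that trims chemokines (651 CPM), both in epicardial- or mesothelial-like cells, Arrb1 in venous and Rgs16 in lymphatic endothelial-like cells.

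The 19 symbols that did not reach the level were 13 ligands and 6 receptors. Ccl20, Ccl21c, Ccl27b and Cxcl15 had no UMI in any barcode. Ccl11, the eotaxin of fibroblasts, came closest at 19.3 CPM (997 UMIs) in fibroblast-like cells, followed by Ccl8 in macrophage-like cells (17.0 CPM), Ccr9 in group 2 innate lymphoid-like cells (16.7 CPM from 10 UMIs) and Ccl27a in epicardial- or mesothelial-like cells (16.5 CPM). The others were Ccl21b, Ccl26, Ccl28, Cxcl3, Cxcl5, Cxcl17, Ackr1, Ccr1l1, Ccr3, Ccr4 and Ccr10. Just inside the minimum were Ccl22 (20.4 CPM) and Cxcr1 (27.2 CPM).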

How the data were processed

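The authors deposited 1 joined table of raw UMI counts per gene and barcode, made with Cell Ranger 7.1.0 on mm10 per the submitters' processing notes. How the libraries were joined: not given in the sources used here. No label ties barcode suffixes to samples, so the planned count-model comparison of stroke with control was not run. Barcodes were kept with at least 500 UMIs, 250 genes and at most 15% mitochondrial UMIs (821 failed). Scrublet in scanpy 1.11.5 removed 1316 doublets. In library 3 its own threshold marked 0%, and 0.208, the median of the other libraries, was used. Cells were clustered on 2000 variable genes without the members, 30 principal components and the Leiden method (leidenalg 0.10.2, resolution 1), and named where at least 3 markers were 2-fold up. Endothelial-, fibroblast-, macrophage-, dendritic-, B-cell- and T-cell-like cells were then clustered again, fibroblast-like cells at a lower resolution. Subtypes, and with them most endothelial-like classes, were named where at least 3 markers were 1.5-fold up on the rest of the broad class. Endothelial-like cells that took no subtype name kept the name of their first cluster. Clusters with markers of unrelated classes (466 cells), cycling clusters (230) and others without a name (599) were set apart by thresholds chosen after the values were seen.

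Features that share a symbol were summed. Every member with 20 CPM from at least 10 UMIs in a class is named, except 1 that is not reported here, and those at 100 CPM or more are given by library. The call at 2-fold was tried on simulated counts for neutrophil-like cells, changing only features at 100 CPM or more, with no spread between cells. It does not cover members at lower levels or calls that lean on 1 cell. The members, lists and pairs were chosen with earlier results of these data known. Alternatives were a stricter filter, doublets kept, resolution 2, members allowed in clustering, equal weight per cell, thinning to 1000 UMIs, a minimum of 50 CPM and each library left out.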

Additional observations from a re-analysis of the deposited data

Results flagged for a closer look

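In cells outside the named classes, 5 member levels were above those of the highest named class. These cells passed the filters but sat in sub-clusters that carried markers of unrelated classes or took no name, and they enter none of the levels by class. The 154 cells set apart from the macrophage-like cluster, some with endothelial and some with cardiomyocyte markers, had 237 CPM of Ccl2 (202 UMIs), against 200.1 CPM in macrophage-like cells, and 216 CPM of Cxcl16 (184 UMIs), against 212 CPM. The MHC-II-high subtype was above them for both, at 307 CPM of Ccl2 and 316 CPM of Cxcl16. The 54 cells set apart from the cluster of Pi16 and Cd248 fibroblast-like cells had 499 CPM of Ackr3 (281 UMIs), against 263 CPM in lymphatic endothelial-like cells and 409 CPM in the named Pi16 Cd248 cells. Cxcl14 was 290 CPM in 98 unnamed cells led by Gsta3, Smoc2 and G0s2 (150 UMIs) and 330 CPM in 52 cells set apart from a cluster led by Apod, Svep1 and Col6a6 (134 UMIs), against 192 CPM in fibroblast-like cells, whose Ifitm1-led subtype was higher than both at 396 CPM. The unnamed and set-apart cells were not compared between libraries.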

How the results depend on the processing

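No paired analysis was possible because no barcode is tied to a sample, and the alternatives planned for stroke against control were not run for the same reason. Under the other settings the count of ligands at the minimum level was 20 to 26, against 25, and that of receptors 14 to 17, against 16, the lowest values with a minimum of 50 CPM and, for receptors, also with thinned cells. Of all counts, 2 moved by more than 1.5 times: members 2-fold higher in epicardial- or mesothelial-like cells came to 1 with doublets kept, against 0, and those in group 2 innate lymphoid-like cells to 3 to 5 with a library left out (5 without library 3), against 3. The highest class was kept by 40 of 40 members at resolution 2 and by 34 of 37 after thinning. With doublets kept, 6 of 40 changed their highest class (Ccl3, Ccl4 and Ccl9 to mast-cell-like cells), and under the stricter filter 3 of 40 did (Cxcl1 to fibroblast-like, Cx3cr1 and Cxcl16 to erythroid-like cells). Neither mast-cell-like nor erythroid-like cells are among the 21 classes. The erythroid-like cells were 59 cells split from the macrophage-like cluster, with haemoglobin genes leading but also C1qa, C1qb and C1qc. Macrophage was their second class. The mast-cell-like cells were 29 cells split from a fibroblast-like cluster, with fibroblast as second class, and 21 cells with basophil as second class. Cxcl13 in macrophage-like cells ranged over 182 to 959 CPM and Cxcl1 over 115 to 366 CPM with a library left out, and were 51.2 and 54.1 CPM under the stricter filter, which set 116 cells led by Slpi, Saa3 and Prg4 apart for their fibroblast markers. Ccl1 in T-cell-like cells was 8.29 CPM without library 3 and 127 CPM without library 2. Ccl22 in dendritic-like cells, at 20.4 CPM, was under 20 CPM with the stricter filter (19.0), doublets kept (9.15), resolution 2 (19.4), members allowed (3.44), equal weight per cell (19.3), without library 1 (14.8) or 3 (17.7) and without its highest cell (16.8). Cxcl10 was 24.7 CPM with doublets kept, 35.6 with members allowed and 35.7 thinned, against 59.0, and its highest class turned to neutrophil-like with these 3, with equal weight and without library 1, and to macrophage-like without library 3. Ccl17 was 82.6 CPM with members allowed, 14.3 thinned and 19.8 without its highest cell, against 33.3. The cause of the other shifts was not tested. After the values were seen, leaving out serous-cavity-like cells and the cell with the most UMIs were added. Thinned to 1000 UMIs per cell, Ackr2, Ccl17, Ccl22 and Cxcr1, with 24 to 44 UMIs in their highest class, no longer reached the level. Ccl25 (31 UMIs) and Cxcr3 (37 UMIs) still did. The part of depth in these losses was not tested.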
